A study of Acrobeloides nanus with 194 samples.

Results

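Anterior and posterior pieces of embryos of the nematode Acrobeloides nanus, titled Comma after a stage of development, were compared for the level of every transcript counted. The libraries were those titled Comma anterior (6) and Comma posterior (6), and a library was kept where its counts summed to 10000 or more. That left 11 of the 12: all 6 anterior libraries and 5 posterior libraries. Over the whole series 150 libraries passed the same minimum and 44 did not. Posterior replicate 4, with 2645 counts, was not used. In both positions replicates 1 to 3 carry the stage label comma stage, and replicates 4 to 6 are titled Comma but carry the stage label gastrula. The comma stage label thus holds 3 anterior and 3 posterior libraries, and the gastrula label 3 anterior and 2 posterior. The labels of both positions name embryonic cells from embryos freed of the egg shell and taken apart by hand, and name no strain, treatment or age in minutes. Each library was made with CEL-Seq2, which barcodes the RNA of a sample at the 3′ end before samples are pooled. No label names the embryo a piece came from, so anterior and posterior pieces may share embryos, and the p-values measure the spread between these pieces. Middle pieces of the same title (5 libraries) shared the main fit. Pieces may hold different cells and different numbers of them, so fewer cells of a type and less RNA per cell cannot be told apart.

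Acrobeloides nanus is a free-living, parthenogenetic nematode. The comma stage takes its name from the bent outline of the embryo as elongation begins, when most cells have been born and tissues are differentiating. In Caenorhabditis elegans, the head end at this stage holds the forming pharynx, the feeding pump, and most neurons. The rear holds the hindgut and the tail epidermis, with the intestine and the germline precursors behind the pharynx. The rows of the deposited count table carry neither gene names nor sequence. Each row therefore goes by its place in the deposited table, counted from row 1 at the top. No row could be given a function, and neither position could be checked against marker genes of pharynx, intestine, muscle, epidermis, germline or neurons.

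Depth varied more within each position than between the means of the positions. Totals ran from 27176 to 164096 counts in anterior libraries (70643.7 ± 54553.2, SD, n = 6) and from 14721 to 78677 counts in posterior libraries (47738.4 ± 28376.8, SD, n = 5). One count was therefore worth 6.09 CPM (counts scaled to the library's total) in the deepest library, anterior replicate 3, and 67.9 CPM in the shallowest, posterior replicate 5. The mean log2 total differed by 0.481 (two-sided exact permutation test, p = 0.481). Rows with at least 1 count numbered 10713.3 ± 2886.1 in anterior and 9969.0 ± 2873.8 in posterior libraries (exact permutation p = 0.675). After each library was thinned to 10000 counts the numbers were 4427.1 ± 528.9 in anterior and 4611.2 ± 355.1 in posterior libraries (exact permutation p = 0.524). None of these differences exceeded the spread between libraries, and the adjusted p over the 4 permutation tests made was 0.675 for each.

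Over all rows, libraries of the same position were hardly more alike than libraries of different positions. The Pearson correlation across rows of log2(CPM + 50) averaged 0.575 between libraries of the same position and 0.568 between libraries of different positions. The difference of 0.00657 gave p = 0.22 in an exact permutation test over 200 arrangements of the positions within the stage labels. The pooled means hide a split. Every anterior library was on average more like its own position than the other, and no posterior library was. Of the other 10 anterior and posterior libraries, 9 had anterior replicate 3, the deepest, as their closest among all Comma libraries, with r from 0.557 to 0.733. Posterior replicate 5, the shallowest, had the lowest correlations of the 11. The closest pair was formed across positions: anterior replicate 5 and Comma middle replicate 3 had r = 0.782. Among all 150 libraries, anterior replicate 5 was most like a 13-cell AB2 library (r = 0.804), while anterior replicates 2 and 3 were most like pieces titled VE ant_pharynx (r = 0.678 and 0.773). Anterior replicate 4 and posterior replicates 1 and 6 were most like the same 6-cell P4D library (r = 0.641, 0.665 and 0.672), and anterior replicates 1 and 6 were most like anterior replicate 3. The other posterior libraries found their closest match in libraries titled E8 post_E, E4 AB_POST and VE ant_pharynx, with r from 0.588 to 0.728. No 2 replicates agreed within counting noise, so none was taken for a duplicate.

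**Figure D1:**
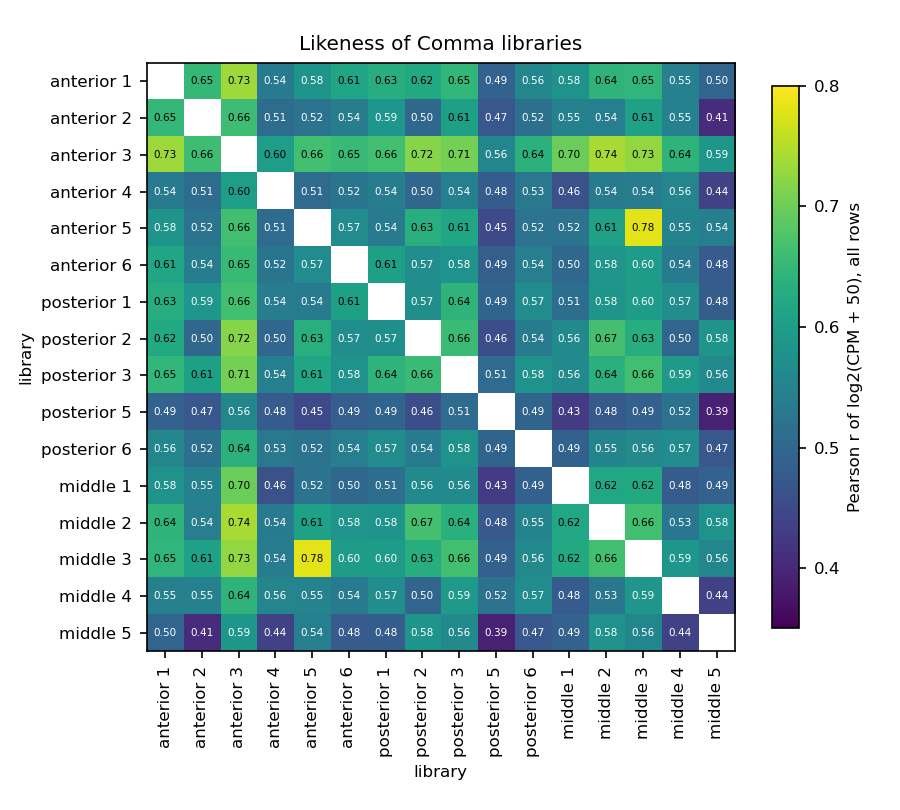
Pearson correlation of log2(CPM + 50) over all rows for each pair of the 16 Comma libraries, with libraries along both axes and the correlation as colour and number. The brightest square joins anterior replicate 5 and middle replicate 3 (r = 0.782); the anterior and posterior libraries form no blocks of their own.

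With the stage label as a term, no row passed the test between anterior and posterior pieces. Of 703 rows tested with the quasi-likelihood test of edgeR, 0 had a Benjamini-Hochberg adjusted p under 0.05 (0% called), and the smallest adjusted p was 0.0735. At an unadjusted p under 0.05 there were 42 rows (5.97%), 19 higher (2.7%) and 23 lower (3.27%) in anterior pieces. DESeq2, run as an alternative, called 1 row. Most rows differed little, with a median absolute log2 fold change of 0.469 over the 703, while 23 rows stood 2 or more log2 units apart. A row separated the positions only rarely: every anterior library lay above every posterior one in 1 of the 703 rows (0.142%), and every posterior library lay above every anterior one in 2 (0.284%).

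The row with the smallest p among those higher in anterior pieces was row 5605, which was not called. Its levels were 675, 317 and 981 CPM in anterior replicates 1 to 3 and 0, 47.1 and 71.6 CPM in anterior replicates 4 to 6. In posterior replicates 1 to 3 its levels were 23.8, 38.1 and 13.3 CPM, and posterior replicates 5 and 6 had no count. The row was therefore high in the 3 anterior libraries with the comma stage label, while the other anterior libraries overlapped with the posterior ones. The means were 349 ± 399 CPM in anterior pieces (SD, n = 6) and 15.1 ± 16.3 CPM in posterior pieces (SD, n = 5). The log2 fold change was 4.72 ± 0.95 (SE; edgeR adjusted p = 0.0735), and it rests on 1, 3 and 1 counts in the posterior libraries that had any. DESeq2 called the row (log2 fold change 4.01, adjusted p = 0.00522). Middle pieces were divided too, with 644, 1883 and 134.8 CPM in replicates 1 to 3 and 21.5 and 0 CPM in replicates 4 and 5. Among all libraries not titled Comma the median was 0 CPM, and 2 libraries exceeded 317 CPM, the higher of them at 654 CPM (6-cell EMS).

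The row with the smallest p among those lower in anterior pieces was row 16135, which was not called either. Anterior replicates 1 to 6 held 1483, 476, 2858, 589, 2855 and 2791 CPM. Posterior replicates 1, 2, 3, 5 and 6 held 3910.2, 8274, 6168, 5570.3 and 3768 CPM. Every posterior library was thus above every anterior library, the highest anterior value being 2858 CPM and the lowest posterior value 3768 CPM. The means were 1842 ± 1143 CPM in anterior pieces (SD, n = 6) and 5538 ± 1848 CPM in posterior pieces (SD, n = 5). The log2 fold change was -1.67 ± 0.48 (SE; edgeR adjusted p = 0.545), with -2.09 ± 0.71 within the comma stage label and -1.04 ± 0.76 within the gastrula label. The fold changes in the labels differed by -1.05 ± 1.04 (adjusted p = 0.666). Middle pieces lay with the posterior ones, from 3535 to 13824 CPM. The row was abundant through most of the series, with a median of 4269 CPM and a range of 45 to 31496 CPM over all libraries not titled Comma. Its log2 difference was 0.33 ± 0.76 between anterior and posterior pieces of stage E8, and 0.23 ± 0.73 between VE ant_pharynx and VE middle pieces.

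The other rows whose positions did not overlap were picked out after their values were seen. Row 15271 had 178.9 to 238 CPM in anterior libraries, with a median of 214, and 39.9 to 177.8 CPM in posterior libraries, with a median of 95.4 (log2 fold change 1.14 ± 0.63, edgeR adjusted p = 0.689). Row 14194 had 110.4 to 251 CPM in anterior libraries, with a median of 153.8, and 310.0 to 391 CPM in posterior libraries, with a median of 339.7 (log2 fold change -1.05 ± 0.39, edgeR adjusted p = 0.646). The gap in row 15271 was less than 1 count in any of these libraries, 1 count being worth 6.09 to 67.9 CPM. That in row 14194, from 251 to 310.0 CPM, was wider but still less than 1 count in posterior replicate 5 (67.9 CPM). Both rows rest on few counts in the shallower libraries. In the middle pieces row 15271 ranged from 0 to 223 CPM and row 14194 from 157.2 to 417 CPM, across both positions.

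Within the comma stage label, edgeR called 4 rows higher in anterior pieces and 0 lower. They were 4 of 950 rows tested over 3 anterior and 3 posterior libraries (0.421%), all with an edgeR adjusted p of 0.0277. At an unadjusted p under 0.05 12.1% of the rows were found, 67 higher (7.05%) and 48 lower (5.05%) in anterior pieces, and DESeq2 called 23 rows, 21 higher and 2 lower. One of the 4 was row 5605, with a log2 fold change of 4.47 ± 0.79 in this label. The other 3, rows 15284, 12975 and 7674, were named after their values were seen.

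Row 15284 stood at 2488, 4229.7 and 2620.4 CPM in anterior replicates 1 to 3, against 23.8, 127.1 and 186.1 CPM in posterior replicates 1 to 3. Its means were 3113 ± 969.7 CPM in anterior and 112.4 ± 82.1 CPM in posterior pieces of this label (SD, n = 3 each), a log2 fold change of 4.68 ± 0.79. Anterior replicates 4 to 6 held only 110.4, 94.2 and 251 CPM, close to the 67.9 and 35.6 CPM of posterior replicates 5 and 6. Row 15284 was therefore abundant in the anterior pieces of 1 stage label and low in the other, where its levels came from 10 counts or fewer a library.

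Row 12975 had the tightest anterior values, 3806, 4124 and 4211 CPM in replicates 1 to 3, against 143.1, 89 and 492 CPM in posterior replicates 1 to 3 (log2 fold change 3.98 ± 0.74). Anterior replicates 4 to 6 held 221, 131.9 and 322 CPM and posterior replicates 5 and 6 held 340 and 427 CPM. The posterior libraries were thus the higher ones under the gastrula label, on 5 to 14 counts a library. Row 12975 was not called in that label (edgeR adjusted p = 0.869). Row 7674 had 923, 978 and 2102 CPM in anterior replicates 1 to 3, against 71.5, 76.3 and 79.8 CPM in posterior replicates 1 to 3 (log2 fold change 3.98 ± 0.72). Under the gastrula label row 7674 stood at 36.8, 18.8 and 35.8 CPM in anterior and at 67.9 and 0 CPM in posterior libraries, which is 1 or 2 counts in any library that had one.

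High levels of these rows were also found in middle pieces. Middle replicate 1 held 3096 CPM of row 15284, 2964 CPM of row 12975 and 1801 CPM of row 7674, inside or near the range of anterior replicates 1 to 3. Middle replicate 4, which carries the gastrula label, held 1523 CPM of row 12975, 279 CPM of row 15284 and 257 CPM of row 7674, above every anterior library of that label in each row. Outside the Comma pieces row 15284 had a median of 134.7 CPM but reached 3474 CPM in a piece titled E8 ant_epithelia. Row 12975 had a median of 242 CPM and reached 6534 CPM in a 16-cell AB library. Row 7674 had a median of 75.2 CPM and reached 1431 CPM in a 3-cell AB library. The lowest of anterior replicates 1 to 3 was exceeded in 3 such libraries for row 15284, in 7 for row 12975 and in 2 for row 7674.

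The 4 calls depended on single libraries. With rows selected anew, 0 rows were called without any one of anterior replicates 1, 2, 3, 4 and 6 or posterior replicates 1, 2, 5 and 6, 1 without posterior replicate 3 and 2 without anterior replicate 5. On the same 950 rows, 0 were called without any one of anterior replicates 1, 3 and 6 or posterior replicates 1, 2 and 6, 1 without posterior replicate 3, and 2 without anterior replicate 5. Without anterior replicate 2 or posterior replicate 5 there were 3 calls on the same rows, and without anterior replicate 4 there were 4. The log2 fold changes of the 4 rows moved less than the calls, between 3.52 and 5.16 over 25 alternatives, with adjusted p-values of up to 0.204. The 25 are these refits together with DESeq2, another normalization and no filter on low counts.

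**Figure D2:**
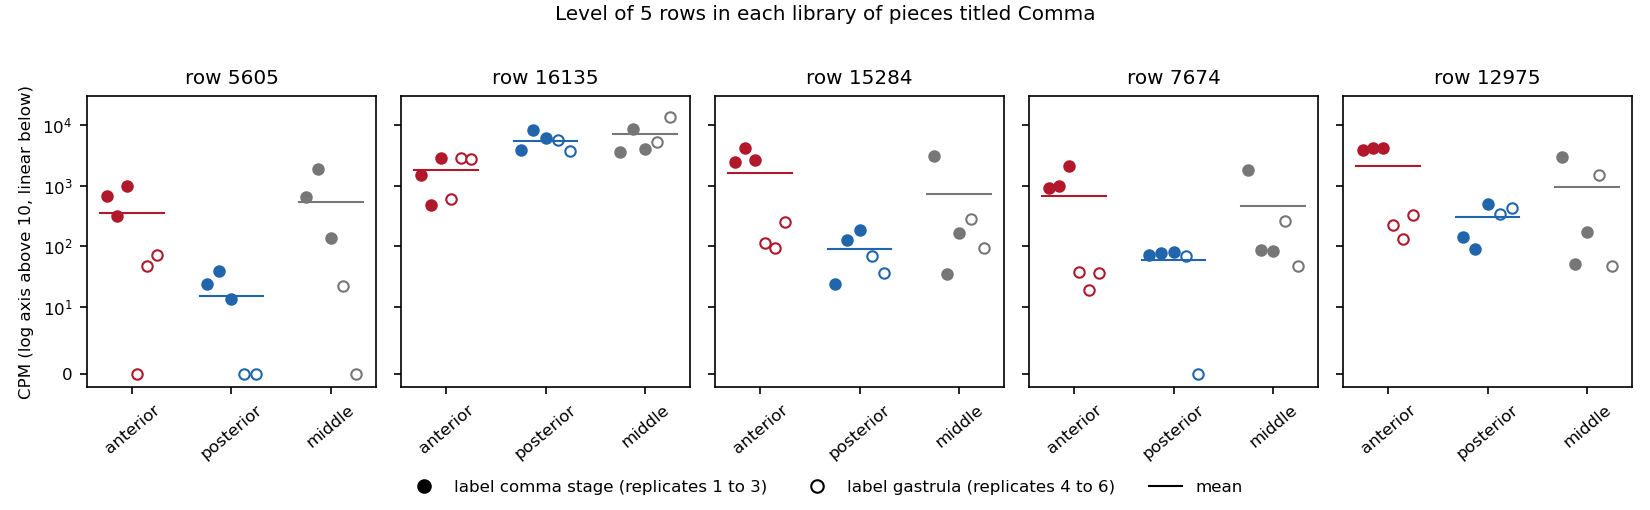
CPM of rows 5605, 16135, 15284, 7674 and 12975 in each anterior, posterior and middle library, on an axis that is logarithmic above 10 and linear below, with filled points for the comma stage label, open points for the gastrula label and a line at the mean. In rows 15284, 7674 and 12975 the 3 filled anterior points stand apart from the open ones and from every posterior point; in row 16135 every posterior point is above every anterior one.

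Under the gastrula label no row was called. Of the same 950 rows, 0 passed in 3 anterior against 2 posterior libraries with edgeR (0% called), 52 had an unadjusted p under 0.05 (5.47%), and DESeq2 called 0. Row 5605 had no count in either posterior library, where 3 counts would be 204 and 106.7 CPM, and at most 71.6 CPM in the anterior ones, so no fold change is given for it. Row 15284 had a log2 fold change of 1.62 ± 1.05, row 7674 of 0.23 ± 1.29 and row 12975 of -0.74 ± 0.79 in this label.

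The difference between the labels was itself tested, and 0 of 950 rows passed with edgeR (0% called). At an unadjusted p under 0.05 there were 100 rows (10.5%), and DESeq2 called 2. Row 12975 differed by 4.72 ± 1.05 log2 units between the labels, the comma stage label being higher (edgeR adjusted p = 0.355). Row 7674 differed by 3.75 ± 1.78 (adjusted p = 0.487) and row 15284 by 3.06 ± 1.39 (adjusted p = 0.467). A stronger position difference under the comma stage label was therefore not established for any row named here.

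The labels share no library, and over all rows their position differences did not run together. Across the 950 rows the Pearson correlation of the log2 fold changes was -0.139, a description over rows that are not independent, and 41.2% of rows had the same sign. Of the 67 rows higher in anterior pieces at p under 0.05 under the comma stage label, 25 were also positive under the gastrula label. Their median log2 fold change was 2.51 under the comma stage label and -0.165 under the gastrula label, where the median of all rows was 0.252 and 58.1% were positive. Of the 48 rows lower in anterior pieces under the comma stage label, 18 were also negative under the gastrula label, where 41.9% of all rows were. Groups that did not overlap were frequent with so few libraries: anterior was wholly higher in 97 rows (10.2%) under the comma stage label and in 12.2% of rows under the gastrula label. Posterior was wholly higher in 29 rows (3.05%) under the comma stage label and in 86 (9.05%) under the gastrula label. In both labels at once, 5 of the 950 rows were wholly higher in anterior and 4 of the 950 in posterior pieces. Whether these are more than would coincide without a link between the labels was not tested.

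**Figure D3:**
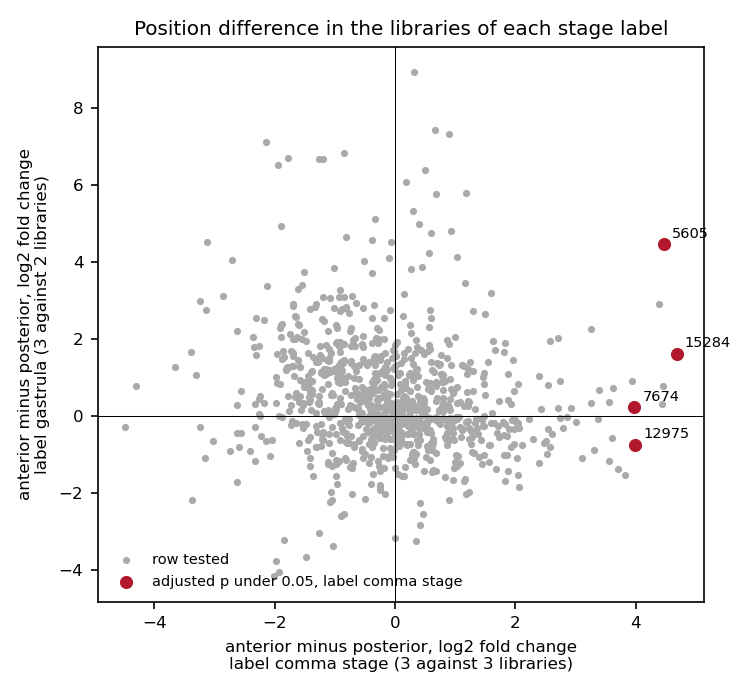
Anterior minus posterior log2 fold change of each of 950 rows, under the comma stage label (horizontal) and under the gastrula label (vertical), with the 4 rows called under the comma stage label in red. The cloud does not follow the diagonal (r = -0.139); rows with no count in a group, row 5605 on the vertical axis among them, take values set by the fit's prior count.

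To describe the positions in libraries outside the comparison, 2 lists were taken from it: the 50 rows with the smallest p higher in anterior pieces, and the 50 lower in anterior pieces. The values chose the lists, so their levels in Comma pieces are a description. The anterior list held 2.88% to 6.84% of the counts in anterior libraries with a median of 3.48%, 1.04% to 1.41% in posterior libraries with a median of 1.32%, and 1.17% to 3.48% in middle pieces with a median of 2.78%. The posterior list held 2.12% to 4.72% in anterior libraries with a median of 2.54%, 6.04% to 10.7% in posterior libraries with a median of 7.47%, and 3.15% to 8.97% in middle pieces with a median of 6.9%. Middle pieces overlapped with both positions in both lists.

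At stage E8, 5 anterior pieces titled ant_Pharynx, ant_epithelia or ant_mesoderm were set against 6 posterior pieces titled post_Abp or post_E, and edgeR called 0 of 202 rows (0% called; 11 at an unadjusted p under 0.05, 5.45%; DESeq2 called 4). Of the 12 anterior-list rows tested there, 7 were positive, with a median log2 fold change of 0.11 beside 0.00 over all rows, of which 50% were positive. Of the 21 posterior-list rows tested, 18 were positive and 3 negative, with a median of 0.43. Most of the 21 had row numbers in a narrow range that includes row 16135, and nearly all of those were positive. The few tested rows outside that range went both ways. Whether rows with such close numbers vary separately was not tested, so the 18 cannot be read as separate reversals. None of the rows of either list was called at E8 and none had an unadjusted p under 0.05. The anterior list held a median of 1.61% of the counts in E8 anterior pieces (1.24% to 4.65%) and 1.67% in E8 posterior pieces (1.27% to 4.36%). The posterior list held a median of 7.17% in E8 anterior pieces (4.38% to 7.91%) and 5.47% in E8 posterior pieces (3.63% to 6.08%), and the ranges of both lists overlapped.

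Pieces titled VE, an abbreviation the labels do not spell out, offered 4 libraries of ant_pharynx (2 with the comma stage label and 2 with the gastrula label) and 3 of middle (2 with the comma stage label and 1 with the gastrula label). A single VE posterior library passed the minimum, so the comparison is with middle and not posterior pieces, and the stage label entered as a term. There edgeR called 0 of 1555 rows (0% called; 86 at an unadjusted p under 0.05, 5.53%; DESeq2 called 3). Of the 40 anterior-list rows tested, 29 were higher in ant_pharynx pieces, where 53.6% of all rows were, with a median log2 fold change of 0.29 beside 0.05 over all rows. Of the 48 posterior-list rows tested, 22 were higher in ant_pharynx pieces, with a median of -0.07. No row of either list was called, and 4 rows of the anterior list and 1 of the posterior list had an unadjusted p under 0.05. The anterior list held a median of 2.51% of the counts in VE ant_pharynx pieces (1.95% to 3.61%) and 1.95% in VE middle pieces (1.83% to 2.76%). The posterior list held a median of 4.63% in VE ant_pharynx pieces (2.11% to 5.79%) and 4.93% in VE middle pieces (2.09% to 7.76%).

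A pair of row lists set single libraries apart within the anterior position. Both were drawn after the values were seen and are described without a test. There were 5 rows at 500 CPM or more in each of anterior replicates 1 to 3 and at least 4-fold above every posterior library, and 3 of them are rows 15284, 7674 and 12975. These 5 rows held 1.27% to 1.53% of the counts in anterior replicates 1 to 3, 0.0499% to 0.0716% in anterior replicates 4 to 6 and 0.0525% to 0.0904% in posterior libraries. They held 1% or more in 13 of the 150 libraries of the series, with a median of 0.0761% in the others and a highest value of 0.953% among them, so 1% marks no gap. The 10 besides anterior replicates 1 to 3 were Comma middle replicate 1 (1.19%), the E8 pieces post_Abp replicates 1 and 2 and ant_epithelia (1.03% to 1.09%), 4 libraries of early cells and 2 libraries whose titles name no cell. The early cells were 2-cell P1 (1.64%), 16-cell AB (1.19%), 4-cell P3 (1.13%) and 3-cell AB (1.07%). The 5 rows were thus high together in single libraries of several stages, the earliest being the 2-cell embryo. Other stages had no such library, the highest share being 0.117% in 13-cell and 0.135% in E4 libraries.

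Anterior replicate 5 stood apart through another list. In that library 79 rows were at 500 CPM or more and at least 4-fold above each of the other 10 anterior and posterior libraries, where between 3 and 34 rows met the same rule in any other library. The 79 rows held 17.3% of the counts of anterior replicate 5, against at most 1.45% in any other anterior or posterior library. They held 5% or more in 10 of the 150 libraries, among them Comma middle replicate 3 (10.7%), 5-cell P4 (19.8%), 3-cell AB (17.8%), 13-cell AB2 (16.1%), 4-cell AB (8.07%) and a piece titled E (24.7%). Also among the 10 were libraries labelled stage E2 whose titles name no cell (28.6%, 26.2% and 13.7%). In the 140 others the median was 0.483% and the highest 4.35%. Of the 703 rows compared between positions, 14 belonged to the 79, and so did 3 of the 50 rows of the anterior list. Without anterior replicate 5 alone, edgeR called 0 of 553 rows between the positions, and row 5605 had a log2 fold change of 4.65 (adjusted p = 0.0971). Without both anterior replicate 5 and middle replicate 3, an alternative added after the data were seen, edgeR called 1 row between the positions, row 5605 (log2 fold change 4.67, adjusted p = 0.0268).

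**Figure D4:**
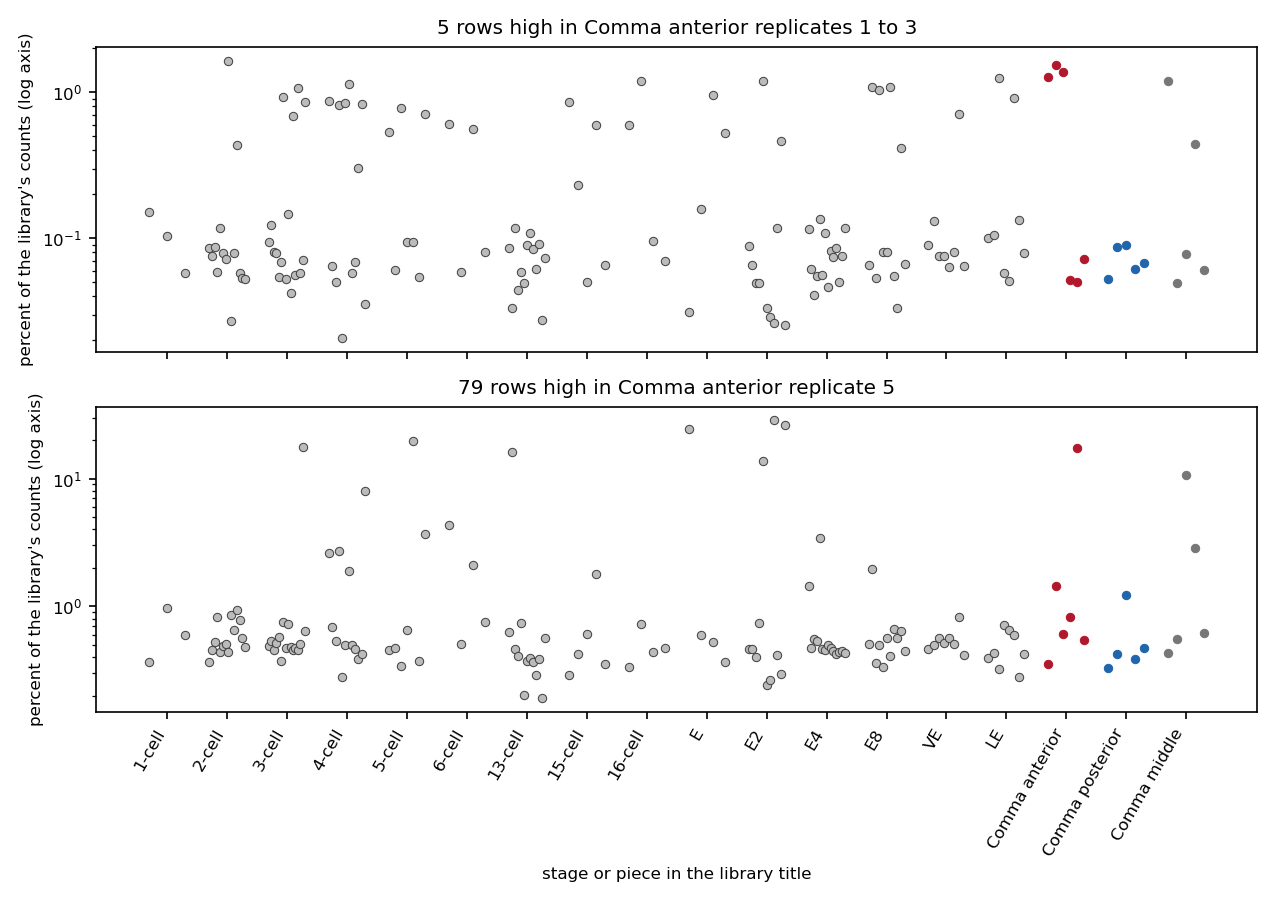
Share of each library's counts, in percent on a log axis, held by the 5 rows high in Comma anterior replicates 1 to 3 (top) and by the 79 rows high in Comma anterior replicate 5 (bottom), for the 150 libraries grouped by the stage or piece in their titles; red is anterior, blue posterior, dark grey Comma middle. Most libraries lie near 0.0761% in the top panel and near 0.483% in the bottom panel, and single libraries of many stages lie 10-fold or more above.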

How the data were processed

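RNA of single cells and pieces of embryos was measured in 150 libraries of 10000 counts or more and 44 under that minimum. The authors deposited counts, whole numbers for 16853 rows without identifiers. CASAVA 1.8, Bowtie2 2.1.0 and HTSeq 0.5.4p3 are named in the submitters' processing notes. Their settings, the genome build, strandedness and any collapsing of molecular identifiers were not given in the sources used here. In the whole table no value exceeded 1024, at which 22 values stood; if that is a ceiling, abundant rows are compressed near it. In the 11 libraries 19 values in 9 rows reached 900, and no named row exceeded 691 counts. The number of a column was looked up in the sample descriptions, and 0 columns found no sample. An annotation of contigs was not used, because nothing pairs it with the rows.

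Libraries under 10000 counts were left out. Rows were tested with edgeR 4.0.16 (R 4.3.3, limma 3.58.1): TMM, filterByExpr (minimum count 10, minimum total 15), robust quasi-likelihood, Benjamini-Hochberg adjusted p under 0.05. The position comparison fitted 16 Comma libraries (6 anterior, 5 posterior, 5 middle) with the stage label as a term; Comma middle replicate 6 was also under the minimum. Comparisons within labels used group means over the 11 libraries. Scripts were tested on simulated data. Standard errors are those that give the test's F. A count of 3 served as the floor for rows at 0. Alternatives were DESeq2 1.42.0, another normalization, no filter on low counts, the replicate number as a block, and leaving out each library of the groups compared. Rows named by rule were the row with the smallest p in each direction where none was called, if detected in more than 50% of the higher group's libraries. The members and lists were chosen with earlier results of these data known.

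Replicate numbers were checked for pairing: deviations of the 5 same-numbered pairs correlated at -0.423 to 0.205, 1 over 0.1, so the numbers were not taken to pair pieces.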

Additional observations from a re-analysis of the deposited data

Results flagged for a closer look

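Row 7674 in posterior replicate 6 stood apart from its group. It had 0 CPM there, against 67.9 to 79.8 CPM in the other 4 posterior libraries, a gap of 0.852 of the whole range. One count in that library is worth 35.6 CPM and 3 counts 106.7 CPM, so the gap to the other posterior pieces amounts to a few counts, and the other posterior values rest on a few counts each as well. Of 18 groups examined 1 was marked in this way, where the nominal rate of the rule is about 1 in 20. The rate for counts this low was not measured.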

How the results depend on the processing

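Numbers of rows called moved with the tool and the filter. DESeq2 called 1 row between positions, 23 within the comma stage label (21 higher and 2 lower in anterior pieces), 2 in the difference between labels, 4 at E8 and 3 at VE, where edgeR called 0, 4, 0, 0 and 0. Without a filter on low counts edgeR called 5 of 16742 rows between positions. It called 19 of 16605 rows within the comma stage label (14 higher and 5 lower) and 7 of 16605 within the gastrula label. At E8 it called 22 of 16614 rows and at VE 18 of 16737. With the filter, 703, 950, 950, 202 and 1555 rows were tested in these comparisons, in the same order. Why the tools and filters differ was not tested. Leaving out each anterior or posterior library in turn gave 0 calls between positions. Middle libraries were not left out singly there, and 1 row was called without anterior replicate 5 and middle replicate 3 together. Leaving out each library gave 0 to 4 calls within the comma stage label and 0 to 5 at VE. It gave 0 within the gastrula label, in the difference between labels and at E8. At VE there was 1 call without ant_pharynx replicate 4, 1 without middle replicate 2 and 5 without middle replicate 3, none of them higher in ant_pharynx.

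The replicate block gave 0 calls of 703 rows between positions and 1 call at VE. The numbers were not taken to pair the Comma pieces, as 1 of the anterior libraries was most like the posterior one of its own number. That check cannot exclude shared embryos. A lost or gained call under the block is therefore no measure of the effect. Row 16135 was negative and not called in all 20 alternatives (-1.89 to -1.28). Row 5605 was positive in the 14 alternatives that tested it (4.01 to 5.15) and called in 2, DESeq2 and the fit without anterior replicate 5 and middle replicate 3; the low-count filter removed it in 6 others.

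Of the whole-library measures, the differences in detected rows and in likeness changed sign, while those in totals and in thinned detected rows kept theirs without each of the 11 libraries in turn. The difference in detected rows was -144 without anterior replicate 3 and -380 without posterior replicate 5, in a range of -380 to 1410 over all left-out libraries. The difference in likeness was -0.00286 over rows with a mean of 100 CPM or more, and -0.0012 and -3.02e-05 without anterior replicates 1 and 2, in a range of -0.0012 to 0.0159. Left-out libraries moved the log2 difference in totals between 0.12 and 0.724, and that in thinned detected rows between -298 and -24.6. At these depths, a row under about 100 CPM gave a few counts or none in the shallower libraries.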
